A study of Mus musculus with 69 samples.

Results

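The 8 genes described here move sodium, protons and bicarbonate across the proximal tubule cell: Slc9a3, Slc4a4, Slc5a12, the carbonic anhydrase genes Car2, Car4, Car12 and Car14, and Atp1b1. They were taken by symbol from a transcriptome of microdissected mouse kidney tubules, and each of the 8 symbols was found in all 4 deposited tables, of 55487 genes at 24 h and 53700 genes at 72 h. Where tested, none of the 8 differed past the threshold between animals with a kidney removed and sham-operated animals, in either tubule segment or at either time. Slc5a12 was too low to be tested in the collecting duct, as were Slc9a3 and Car14 there at 72 h. Slc9a3, Slc4a4, Slc5a12, Car4 and Car14 had their higher level in the proximal tubule, while Car2, Car12 and Atp1b1 were more abundant in the collecting duct.

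The early proximal tubule reclaims most filtered bicarbonate. Slc9a3 encodes NHE3, the apical exchanger that takes up sodium and secretes protons. The protons combine with filtered bicarbonate, and carbonic anhydrases in the lumen and in the cytosol speed the conversion to carbon dioxide and back. Slc4a4 encodes NBCe1, which returns bicarbonate with sodium to the blood across the basolateral membrane, and Atp1b1 encodes the beta subunit of the sodium pump, which keeps cell sodium low. Slc5a12 encodes an apical sodium-coupled carrier of lactate and other monocarboxylates. In the collecting duct, Car2 is known as the cytosolic enzyme of intercalated cells, the cells that secrete acid or base.

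Wild-type (WT) pathogen-free male C57BL/6 mice, 7 weeks old, lost a kidney by surgical excision (unilateral nephrectomy, UNx) or were sham-operated. Tubules of 2 kinds were dissected 24 h or 72 h later, PT-S1, the initial proximal segment, and CCD, the collecting duct of the cortex, and polyA RNA was sequenced from low-input cDNA. PT-S1 at 24 h came from 3 sham animals (8 libraries) and 4 UNx animals (9 libraries), and at 72 h from 5 animals (12 libraries) in each group. CCD at 24 h came from 4 sham animals (8 libraries) and 3 UNx animals (7 libraries), and at 72 h from 4 sham animals (7 libraries) and 4 UNx animals (6 libraries). The animal, read from the number in the title, is the replicate throughout, and whether both segments came from the same animals is not stated. The values are TPM, length-scaled transcript abundances, which divide the reads of a gene by its length and scale each library to the same total, so levels can be compared between genes, but the depth behind each value is unknown. Since the labels give no litters, cages or surgery dates, p-values measure only the spread between the animals as labelled.

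The dissected segments carried their defining markers. The summed level of 7 markers of the S1 and S2 proximal tubule ran from 8754 to 17787 TPM over PT-S1 animals and from 1.97 to 75.9 TPM over CCD animals, while the sum of 6 principal cell markers ran from 18746 to 61903 TPM in CCD and from 27.9 to 113 TPM in PT-S1. Nearly all of the principal cell sum in PT-S1 was Aqp3, with sham means of 76.9 TPM at 24 h and 34.6 TPM at 72 h. Aqp2 had sham means of 0.095 and 0.307 TPM there. No columns held identical values. Of the 69 libraries, 5 correlated weakly with the rest of their table, with a median r of log2(TPM + 1) under 0.92. They were sham 1 library 1 and sham 3 library 2 of PT-S1 at 24 h, UNx 1 library 2 and UNx 2 library 2 of PT-S1 at 72 h, and sham 1 library 2 of CCD at 72 h. Both UNx libraries of PT-S1 at 72 h had S1 and S2 marker sums of 2433 and 2503 TPM, against 18183 and 19348 TPM in the other library of the same animals, and 9247 and 9632 genes with at least 1 TPM. Sham 3 library 2 at 24 h had a marker sum of 5956 TPM. These libraries stood apart in the transport genes too, and the differences they move most are given with and without them. The part of the marker level in those differences was not tested. In bulk tubules, fewer cells of a type cannot be told apart from less RNA per cell.

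Promoter sequences of 6 of the 8 genes were taken from RefSeq on GRCm38.p6, with 7 starts in all because Slc4a4 has 2. Those of Slc5a12 and Car2 were not used here. The 250 bases before the start are shown for Slc4a4 and Car12, the pair with the highest correlation across PT-S1 animals when all libraries are kept, and for Car4, which had the largest difference between UNx and sham. The upstream Slc4a4 start follows chr5:88887010-88887259 and the downstream one chr5:89027716-89027965, both on the plus strand. Car12 lies at chr9:66713436-66713685 and Car4 at chr11:84957504-84957753, both on the plus strand. Capitals mark a GC box or a CCAAT box, in either orientation, and each sequence runs 5′ to 3′ and ends at the base before the start.
Slc4a4, upstream start: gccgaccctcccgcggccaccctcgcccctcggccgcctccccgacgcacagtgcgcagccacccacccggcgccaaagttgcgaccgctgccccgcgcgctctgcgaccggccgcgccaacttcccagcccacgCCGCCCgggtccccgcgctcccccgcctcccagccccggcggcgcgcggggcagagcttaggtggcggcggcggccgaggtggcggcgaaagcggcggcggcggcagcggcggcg
Slc4a4, downstream start: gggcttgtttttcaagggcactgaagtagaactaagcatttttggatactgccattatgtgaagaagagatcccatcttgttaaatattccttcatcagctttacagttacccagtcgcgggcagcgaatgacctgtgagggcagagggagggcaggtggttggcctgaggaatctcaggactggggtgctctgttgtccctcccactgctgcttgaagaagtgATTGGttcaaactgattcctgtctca
Car12: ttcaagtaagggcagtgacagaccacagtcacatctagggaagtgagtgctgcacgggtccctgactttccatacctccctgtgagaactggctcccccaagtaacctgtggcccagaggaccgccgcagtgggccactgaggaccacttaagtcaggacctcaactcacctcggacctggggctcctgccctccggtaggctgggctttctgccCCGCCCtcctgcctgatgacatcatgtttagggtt
Car4: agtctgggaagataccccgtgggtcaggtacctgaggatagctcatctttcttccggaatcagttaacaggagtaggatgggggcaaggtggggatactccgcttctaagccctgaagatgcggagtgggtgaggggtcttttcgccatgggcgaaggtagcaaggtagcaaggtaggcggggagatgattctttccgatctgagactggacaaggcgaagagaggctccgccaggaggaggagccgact

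In these windows 6 motifs were searched on both strands. Of all 32851 RefSeq promoter windows of the same length, 32.7% held the GC box GGGCGG, 33.8% the CCAAT box CCAAT, 12.4% the TATA box TATAAA, 6.43% the HNF1 half-site GTTAAT, 6.02% the E-box CACGTG and 0.384% the HNF4 letters CAAAGTCCA. Among the transport genes, the GC box was found before the upstream Slc4a4 start and before Car12, Slc9a3 and Atp1b1. A CCAAT box stood before the downstream Slc4a4 start, at bases -26 to -22 counted from it, and before Atp1b1. The E-box was found before Slc9a3, at -87 to -82. Car4 and Car14 held none of the 6, and none of the 7 windows held the TATA, HNF1 or HNF4 letters. The upstream Slc4a4 window was 82% G or C and the downstream one 48.8%, against 59.2% for Car12 and 56.4% for Car4. The tables give 1 value per gene, so they do not separate the Slc4a4 starts.

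**Figure D1:**
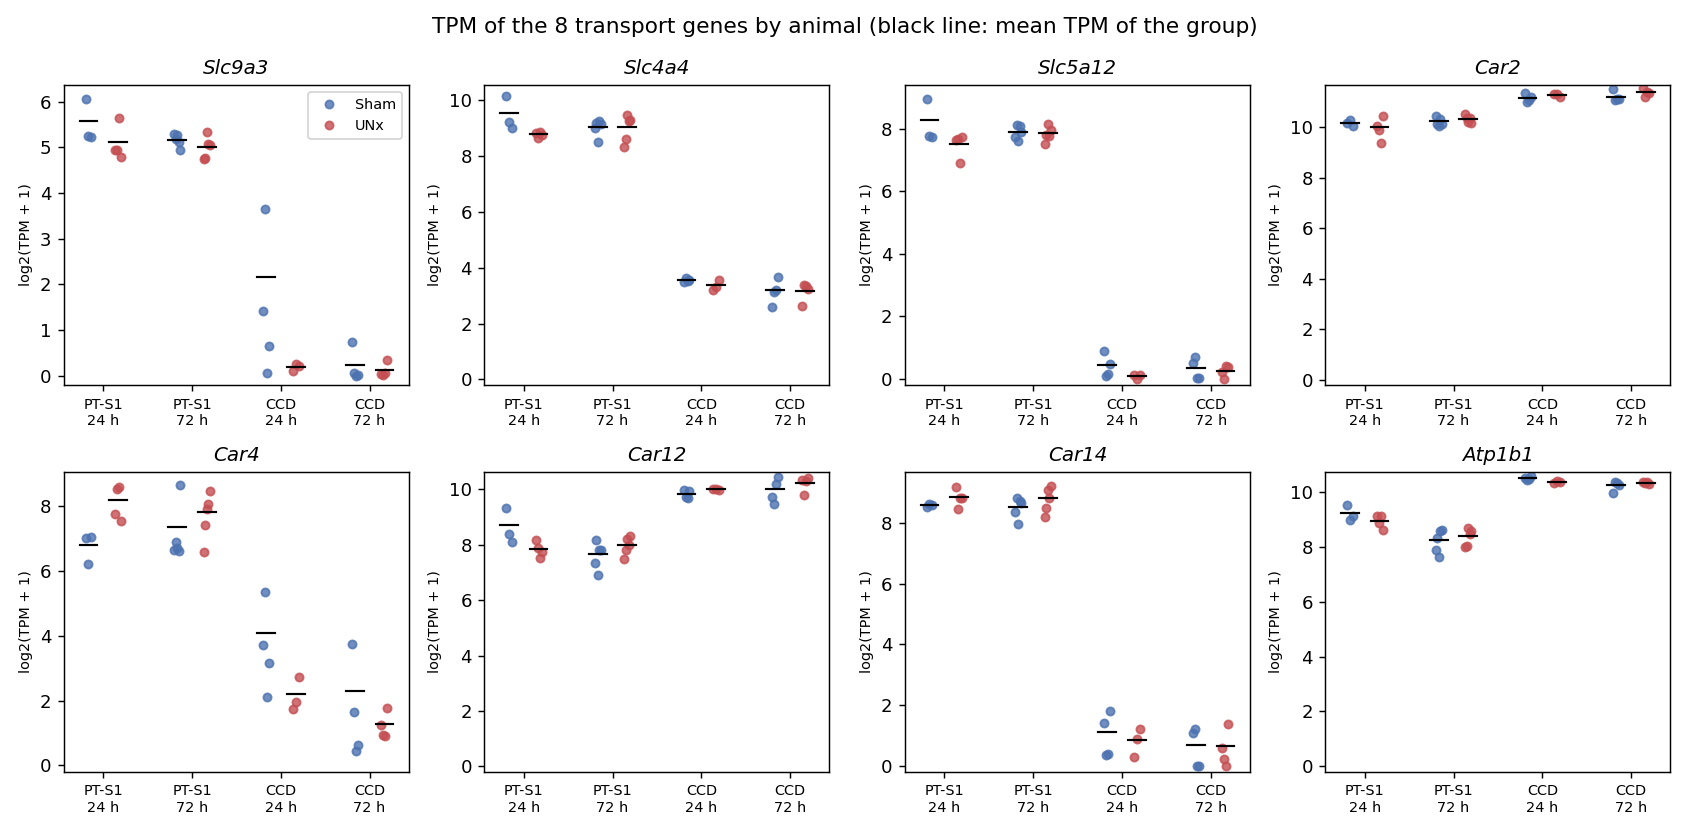
Level of each of the 8 genes, as log2(TPM + 1) of each animal's mean TPM, in sham (blue) and UNx (red) animals of the 4 tables, with a black line at the group's mean TPM. Slc9a3, Slc4a4, Slc5a12, Car4 and Car14 are higher in PT-S1, while Car2, Car12 and Atp1b1 are higher in CCD.

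UNx was compared with sham within each table by limma on log2(TPM + 1), with Benjamini-Hochberg adjustment over all genes with a mean of at least 1 TPM and a threshold of 0.05. All 8 transport genes were tested in both PT-S1 tables, 7 in CCD at 24 h (not Slc5a12) and 5 in CCD at 72 h (not Slc9a3, Slc5a12 or Car14). In PT-S1 at 24 h, 0 of the 8 passed, where 0% of all 11874 genes passed. At an unadjusted p under 0.05 there were 2 of 8, Car4 and Slc4a4, against 17.8% of all genes. The animals of the groups did not overlap for the same 2 genes, against 21.3% of all genes. In PT-S1 at 72 h, 0 of 8 passed (0% of all 11886 genes), 0 had an unadjusted p under 0.05 (20.5% of all genes) and 0 had groups that did not overlap (5.58%).

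In CCD at 24 h, 0 of 7 passed, against 0.987% of all 13775 genes. Car4 alone had an unadjusted p under 0.05 (15.5% of all genes), and Car12 and Atp1b1 alone had groups that did not overlap (15%). In CCD at 72 h, 0 of 5 passed (0.595% of all 13770 genes), 0 had an unadjusted p under 0.05 (7.49%) and 0 had groups that did not overlap (4.77%). The median difference of the transport genes, UNx minus sham, was -0.27 in PT-S1 at 24 h, 0.03 in PT-S1 at 72 h, -0.18 in CCD at 24 h and 0.11 in CCD at 72 h, on the log2(TPM + 1) scale. Over all genes tested the medians were -0.19, -0.29, -0.04 and 0.01. Some differences in PT-S1 are therefore also given relative to the median of all genes. Every difference below is on the log2(TPM + 1) scale, which understates differences at low TPM.

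**Figure D2:**
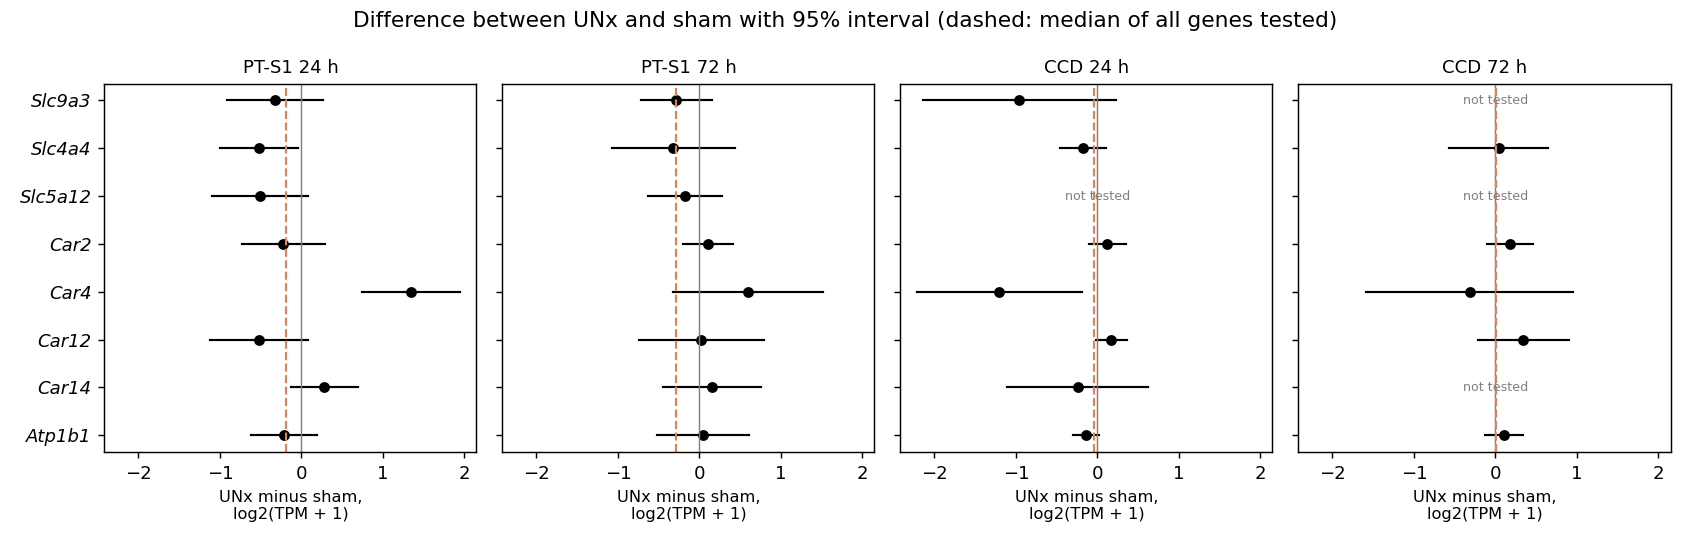
Difference between UNx and sham for each gene, in log2(TPM + 1), with its 95% interval from limma, 1 panel per table, and the median over all genes tested as a dashed line. The interval excludes 0 for Car4 and Slc4a4 in PT-S1 at 24 h and for Car4 in CCD at 24 h, and none of the 28 differences passes after adjustment.

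Slc9a3 (ENSMUSG00000036123), the apical sodium-proton exchanger, was the least abundant of the 8 genes in every PT-S1 group. At 24 h the sham animals had 65.9, 36.9 and 36.5 TPM and the UNx animals 29.5, 29.8, 49.3 and 26.5 TPM. The groups overlapped through UNx 3, and the highest animal, sham 1, owed its level to a library of 112 TPM beside others of 43.6 and 41.9 TPM. The difference was -0.33 ± 0.27 (SE; limma adjusted p = 0.492), and -0.38 ± 0.21 (adjusted p = 0.291) without the 2 sham libraries that stood apart. With all libraries it was -0.134 relative to the median of all genes. Sham animals at 72 h had 38.0, 35.2, 37.7, 34.0 and 29.8 TPM and the UNx animals 25.9, 26.3, 39.4, 32.7 and 31.96 TPM. UNx 1 and UNx 2, the lowest, were those with a library that stood apart. The difference of -0.28 ± 0.20 (adjusted p = 0.365) was 0.00 relative to the median of all genes, and 0.11 ± 0.11 (adjusted p = 0.635) without those 2 libraries.

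In CCD, Slc9a3 was near 0 with exceptions among the sham animals at 24 h. Their values were 1.68, 11.6, 0.05 and 0.56 TPM, against 0.07, 0.20 and 0.15 TPM in the UNx animals, and the groups overlapped at the low end. Sham 2 reached its level through library 1, with 22.6 TPM beside 0.69 TPM in library 2. The difference was -0.96 ± 0.52 (adjusted p = 0.426). At 72 h Slc9a3 lay between 0 and 0.67 TPM in the sham and between 0.02 and 0.28 TPM in the UNx animals, and was not tested. The thick ascending limb also expresses NHE3, and its markers are described with Car4 below. Between their sum and Slc9a3 over the 15 libraries at 24 h, Pearson's r of log2(TPM + 1) was 0.925. The rank correlation (Spearman) was 0.45. The part of thick limb transcripts in Slc9a3 was not tested.

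Slc4a4 (ENSMUSG00000060961), the basolateral sodium bicarbonate cotransporter, was lower in all 4 UNx animals of PT-S1 at 24 h than in any sham animal. Sham animals had 1146, 597.5 and 509 TPM, and UNx animals 448, 402, 459 and 435 TPM. The UNx animals were tightly grouped, and sham 1 stood high through a library of 2379 TPM beside others of 516 and 544 TPM. The difference was -0.52 ± 0.22 (unadjusted p = 0.0365, limma adjusted p = 0.269). Without sham 1 library 1 and sham 3 library 2, which had 2379 and 189 TPM, it was -0.48 ± 0.12 (adjusted p = 0.0954). The means were then 599 ± 69.7 TPM in sham (SD, n = 3) and 436 ± 24.7 TPM in UNx animals (SD, n = 4). With all libraries kept, taking off the shift shared by all genes (median -0.19) left -0.325 for Slc4a4.

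At 72 h Slc4a4 did not keep that order. Sham animals of PT-S1 had 509, 582, 364, 610.4 and 570.1 TPM, and UNx animals 319, 392, 698, 607 and 622 TPM. UNx 1 and UNx 2 were low through libraries of 69.8 and 71.3 TPM, beside 568 and 712 TPM in their other libraries. The difference was -0.32 ± 0.35 (adjusted p = 0.546), and 0.31 ± 0.14 (unadjusted p = 0.0421, adjusted p = 0.270) without those libraries. With all libraries kept, nearly all of it was the shift shared by all genes (median -0.29), which left -0.03. In CCD the gene lay between 8.15 and 11.3 TPM over the animals at 24 h and between 5.06 and 11.8 TPM at 72 h, in both groups together. Sham and UNx overlapped at each time, with differences of -0.18 ± 0.12 (adjusted p = 0.533) and 0.04 ± 0.27 (adjusted p = 0.993). The latter was -0.14 ± 0.20 (adjusted p = 0.798) without sham 1 library 2, which had 2.32 TPM.

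Slc5a12 (ENSMUSG00000041644), the apical sodium-monocarboxylate carrier, had the sharpest contrast between segments of the 8 when all libraries were kept. Its sham means were 306 TPM in PT-S1 and 0.353 TPM in CCD at 24 h. In PT-S1 at 24 h the sham animals had 492, 214 and 210.1 TPM and the UNx animals 197, 202, 119 and 212 TPM. UNx 4 lay above sham 3, so the groups overlapped, and sham 1 again stood high through a library of 1041 TPM. The difference was -0.51 ± 0.26 (limma adjusted p = 0.315), and -0.45 ± 0.20 (adjusted p = 0.197) without the 2 libraries that stood apart. Markers of the third proximal segment (S3) are described with Car4 below. Without the libraries whose S3 markers exceeded 100 TPM, a choice made after the values were seen, the difference was -0.14 ± 0.41 (adjusted p = 0.936). With all libraries it was -0.318 relative to the median of all genes. Sham animals at 72 h had 212, 275, 195, 268 and 235 TPM, and UNx animals 179.7, 223, 281, 218 and 246 TPM. The ranges overlapped widely, with a difference of -0.18 ± 0.21 (adjusted p = 0.575) that was 0.11 relative to the median of all genes, or 0.25 ± 0.15 (adjusted p = 0.394) without the libraries that stood apart. In CCD no animal exceeded 0.86 TPM at either time, so Slc5a12 was not tested there.

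Car4 (ENSMUSG00000000805), a carbonic anhydrase anchored to the outer face of the apical membrane, had the largest difference of the 8 genes. In PT-S1 at 24 h the sham animals had 128, 74.0 and 133 TPM and the UNx animals 219, 367, 385 and 186 TPM. The lowest UNx animal lay above the highest sham animal. The means were 111 ± 32.5 TPM (SD, n = 3) and 289 ± 101 TPM (SD, n = 4), and the difference was 1.34 ± 0.27 (SE; unadjusted p = 0.000499). After adjustment over all 11874 genes it did not pass (limma adjusted p = 0.228). Relative to the median of all genes the difference was 1.54, and leaving out each animal in turn gave differences from 1.11 to 1.53. Without the 2 libraries that stood apart it was 1.04 ± 0.32 (adjusted p = 0.120).

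At 72 h in PT-S1 the sham animals had 98.9, 118, 105, 96.9 and 404 TPM and the UNx animals 95.4, 171, 241, 267 and 352 TPM. In all, 4 of the 5 UNx animals lay above 4 of the 5 sham animals, with sham 5 the highest of all and UNx 1 the lowest. The difference was 0.60 ± 0.42 (adjusted p = 0.367). UNx 1 had 158.8 TPM in library 1 and 31.98 TPM in library 2, which stood apart. Without the UNx libraries that stood apart the UNx animals ran from 153 to 352 TPM. The difference was then 0.79 ± 0.32 (unadjusted p = 0.0302, limma adjusted p = 0.243). Sham 5 held a library of 840 TPM beside others of 215 and 156 TPM, and without this animal the difference was 0.92 (unadjusted p = 0.0318, adjusted p = 0.283). The effect at 72 h minus that at 24 h was -0.75 ± 0.60 (adjusted p = 0.998).

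Markers of the third proximal segment (S3) moved with Car4 across single PT-S1 libraries. The list held Slc7a13, Slc22a7, Slc5a1, Acsm3 and Cyp7b1, of which all 5 were found and 4 tested in each PT-S1 table, with 0 called. Its summed level per animal ran from 5.74 to 97.3 TPM in sham and from 3.29 to 484 TPM in UNx animals at 24 h, and from 1.71 to 730 TPM and from 5.19 to 175 TPM at 72 h. Pearson's r between Car4 and the sum, both as log2(TPM + 1), was 0.72 over the 17 libraries at 24 h and 0.755 over the 24 libraries at 72 h, as a description, since libraries share animals. The same r for the other 7 genes ran from -0.54 (Car2) to 0.15 (Atp1b1) at 24 h and from -0.54 (Car2) to 0.26 (Atp1b1) at 72 h. The sham 5 library with 840 TPM of Car4 had a marker sum of 1955 TPM, and the UNx 2 library with 611 TPM at 24 h had 967 TPM.

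UNx libraries with few S3 transcripts varied in Car4. All 3 libraries of UNx 4 at 24 h had 172, 189 and 198 TPM of Car4 with marker sums of 1.45, 0.73 and 7.69 TPM. UNx 2 library 1 at 24 h had 123 TPM at a sum of 0.99 TPM. At 72 h UNx 1 library 2, which stood apart, had 31.98 TPM at 0.72 TPM, and library 1 had 158.8 TPM at 9.66 TPM. Libraries 1 and 3 of UNx 3 had 217.83 TPM at 3.14 TPM and 120.06 TPM at 0.23 TPM. UNx 2 library 1 at 72 h had 153.17 TPM at 5.87 TPM. Its library 2, which stood apart, had 189.32 TPM at 6.82 TPM. At 24 h the sham libraries with sums under 10 TPM had 39.7, 56.4 and 96.5 TPM of Car4. The lowest and the highest of these stood apart. At 72 h such sham libraries ran from 66.1 to 156 TPM. Of the sham libraries at 24 h, 6 had a marker sum of at most 100 TPM, and their Car4 ran from 39.7 to 139 TPM with a median of 94.0 TPM. The 6 such UNx libraries ran from 123 to 278 TPM with a median of 180.4 TPM, so these single libraries overlapped. With only such libraries, a choice made after the values were seen, the animal means at 24 h ran from 74.0 to 118 TPM in 3 sham and from 123 to 219 TPM in 3 UNx animals. That difference was 0.98 ± 0.31 (unadjusted p = 0.00942, limma adjusted p = 0.716). At 72 h the same choice gave 106 ± 29.9 TPM for sham and 221 ± 95.3 TPM for UNx animals (SD, n = 5 each), with overlapping groups and a difference of 0.87 ± 0.36 (unadjusted p = 0.0298, adjusted p = 0.147).

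**Figure D3:**
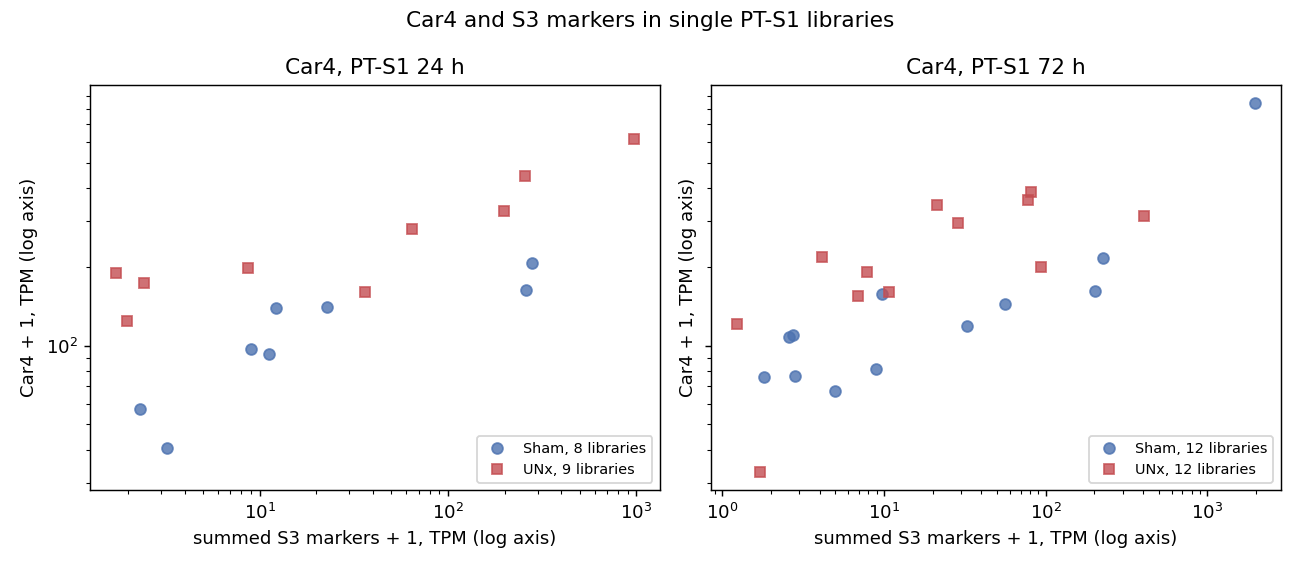
Car4 against the summed TPM of 5 S3 markers in single PT-S1 libraries at 24 h (left, 17 libraries) and 72 h (right, 24 libraries), both axes logarithmic with 1 TPM added, sham as blue circles and UNx as red squares. Libraries with more S3 marker transcripts tend to hold more Car4 in both groups, and among UNx libraries at 24 h with sums under 10 TPM, Car4 ranges from 123 to 198 TPM. Sham libraries at 24 h with such sums, including those that stood apart, range from 39.7 to 96.5 TPM.

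In CCD the order of the Car4 groups was the opposite at 24 h. Sham animals had 12.2, 40.0, 3.32 and 7.96 TPM and UNx animals 2.36, 2.92 and 5.66 TPM, and the groups overlapped through sham 3. The difference was -1.20 ± 0.45 (unadjusted p = 0.0245, limma adjusted p = 0.241). Thick ascending limb markers (Slc12a1, Umod, Cldn16, Cldn10 and Egf, all 5 found and tested, 0 called) summed to between 104 and 4201 TPM per sham animal and between 87.9 and 202 TPM per UNx animal. Sham 2 library 1 had a sum of 8287 TPM with 75.5 TPM of Car4 and 22.6 TPM of Slc9a3, and sham 1 library 2 had 1545 TPM with 19.7 and 2.99 TPM. In sham 2 library 1 Slc5a12 was listed at 0 and Car14 at 0.10 TPM. Without these 2 libraries, a choice made after the values were seen, the Car4 difference was -0.495 ± 0.24 (adjusted p = 0.361), and Slc9a3 averaged 0.418 ± 0.279 TPM in sham (SD, n = 4) and 0.141 ± 0.0659 TPM in UNx animals (SD, n = 3).

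**Figure D4:**
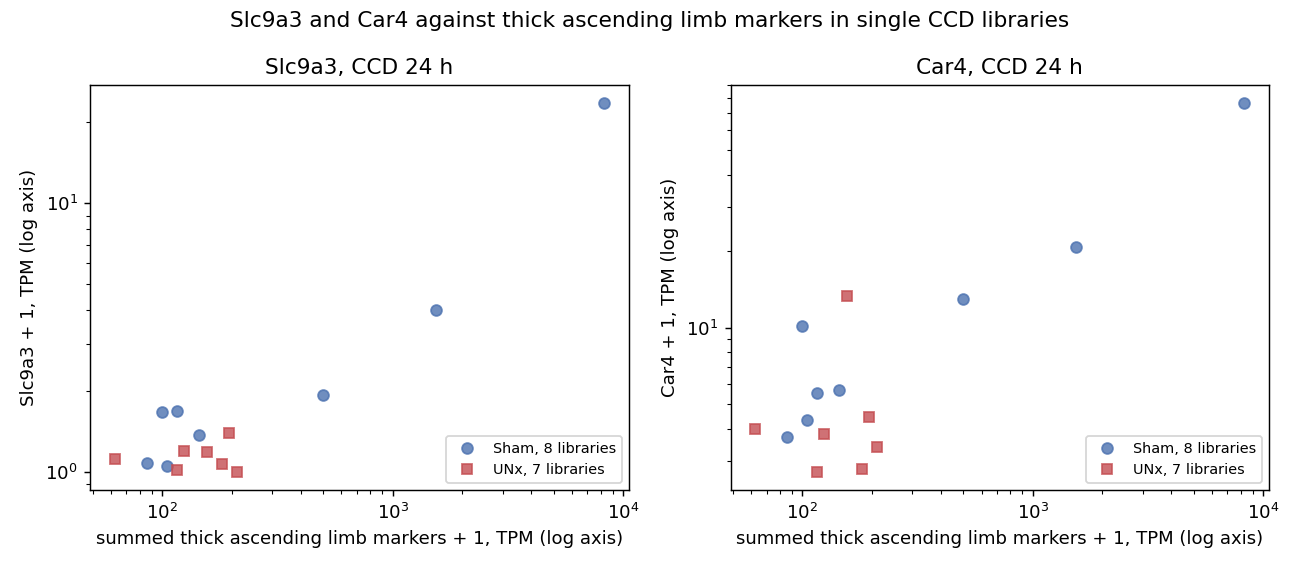
Slc9a3 (left) and Car4 (right) against the summed TPM of 5 thick ascending limb markers in the 15 single CCD libraries at 24 h, both axes logarithmic with 1 TPM added, sham as blue circles and UNx as red squares. The library with the highest marker sum, 8287 TPM, also has the highest Slc9a3 and Car4, at 22.6 and 75.5 TPM.

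At 72 h Car4 in CCD was 12.4, 2.14, 0.37 and 0.53 TPM in sham and 1.39, 0.93, 0.88 and 2.40 TPM in UNx animals, with a difference of -0.32 ± 0.57 (adjusted p = 0.960). Sham 1 was the highest of these through library 2, which stood apart and had 21.3 TPM, and without it the difference was -0.03 ± 0.40 (adjusted p = 0.980). The UNx effect in CCD minus that in PT-S1 was -2.55 ± 0.56 at 24 h (95% interval -3.75 to -1.34, unadjusted p = 0.000413). It did not pass after adjustment (limma adjusted p = 0.105). Without the S3-rich libraries of PT-S1 this difference of effects was -2.18 (adjusted p = 0.385), and without the 2 CCD libraries rich in thick limb markers -1.84 (adjusted p = 0.0994). The corresponding difference of effects at 72 h was -0.91 ± 0.73 (adjusted p = 0.540).

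Car2 (ENSMUSG00000027562), the cytosolic carbonic anhydrase, was the most abundant of the 8 genes in every group. PT-S1 sham animals had 1133, 1229 and 1045 TPM at 24 h and UNx animals 1063, 951.5, 662 and 1365 TPM. The sham range lay inside the UNx range, and the difference was -0.22 ± 0.23 (adjusted p = 0.585), with -0.03 relative to the median of all genes. Without the 2 sham libraries that stood apart it was -0.36 ± 0.22 (adjusted p = 0.320). UNx 3, the lowest, had an S3 marker sum of 198 and 254 TPM in its libraries, and without the libraries over 100 TPM the Car2 difference was 0.23 ± 0.26 (adjusted p = 0.830). The 72 h sham animals ran from 1050.0 to 1382 TPM around a median of 1116 TPM and the UNx animals from 1130.03 to 1473 TPM around 1296 TPM, a difference of 0.10 ± 0.14 (adjusted p = 0.636).

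In CCD Car2 was about as far above PT-S1 at both times, by 1.98-fold in sham means at 24 h and at 72 h. Sham animals at 24 h had 2574, 2011, 2121 and 2294 TPM and UNx animals 2501, 2518 and 2307 TPM. The groups overlapped, and the difference was 0.12 ± 0.10 (adjusted p = 0.605). In the 72 h table the sham animals had 2879.7, 2128, 2179 and 2199 TPM and the UNx animals 2999, 2326, 2649.6 and 2583 TPM. Sham 1 alone lay among the UNx animals, and the difference was 0.18 ± 0.13 (adjusted p = 0.870).

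Car12 (ENSMUSG00000032373), a transmembrane carbonic anhydrase with its active site outside the cell, resembled Slc4a4 in PT-S1. At 24 h the sham animals had 636, 338 and 274 TPM and the UNx animals 285, 237, 182 and 214 TPM. Only UNx 1 reached into the sham range, and the difference was -0.52 ± 0.27 (adjusted p = 0.318). Sham 1 held a library of 1339 TPM and sham 3 a library of 53.3 TPM, the 2 that stood apart. Without them the difference was -0.58 ± 0.16 (adjusted p = 0.104). Another choice, made after seeing the values, kept these 2 and dropped the libraries with S3 markers over 100 TPM. Car12 then differed by only -0.15 ± 0.48 (limma adjusted p = 0.941), so the size of the decrease depended on the libraries kept. Later, at 72 h, sham animals had 163, 285, 121, 222 and 225 TPM and the UNx animals 179, 226, 298, 254 and 317 TPM. The UNx mean was the higher here, at 255 ± 55.4 against 203 ± 63.4 TPM (SD, n = 5 each), with a difference of 0.02 ± 0.36 on the log2 scale (adjusted p = 0.971). Without the UNx libraries of 28.1 and 30.7 TPM the difference was 0.75 ± 0.21 (adjusted p = 0.209).

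In CCD at 24 h Car12 was 1009, 849, 830.1 and 989 TPM in sham and 1036, 1035 and 1015 TPM in UNx animals. All 3 UNx animals lay above the highest sham animal, by a small margin, and the difference was 0.17 ± 0.09 (adjusted p = 0.385). Single libraries ranged more widely, from 788 to 1229.6 TPM in sham and from 904 to 1167 TPM in UNx. Without the 2 sham libraries rich in thick limb markers, a choice made after the values were seen, the groups overlapped. Sham animals then reached 1229.6 TPM, and the difference was 0.085 ± 0.129 (limma adjusted p = 0.800). At 72 h the sham animals had 846, 716, 1174 and 1412 TPM and the UNx animals 1311, 887, 1274 and 1370.3 TPM, with a difference of 0.34 ± 0.25 (adjusted p = 0.871). Sham 1 library 2, which stood apart, had 309 TPM, and without it the difference was 0.08 ± 0.22 (adjusted p = 0.911). The UNx effect at 24 h in CCD minus that in PT-S1 was 0.69 ± 0.31 (unadjusted p = 0.0408, adjusted p = 0.306).

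Car14 (ENSMUSG00000038526), a second transmembrane carbonic anhydrase, was almost confined to PT-S1, with sham means of 383 ± 14.3 TPM (SD, n = 3) there and 1.18 ± 1.07 TPM (SD, n = 4) in CCD at 24 h. In PT-S1 at 24 h the sham animals had 367, 393 and 389 TPM and the UNx animals 586, 352, 459.6 and 449.8 TPM. Of the UNx animals, 3 lay above all sham animals and UNx 2 below them. The difference was 0.28 ± 0.19 (adjusted p = 0.408), and 0.10 ± 0.18 (adjusted p = 0.759) without sham 1 library 1 and sham 3 library 2. With all libraries it was 0.471 relative to the median of all genes. Sham animals at 72 h ran from 248 to 450.3 TPM with a median of 407 TPM and the UNx animals from 292 to 603 TPM with a median of 457 TPM, a difference of 0.15 ± 0.28 (adjusted p = 0.728). Without the 2 UNx libraries that stood apart every UNx animal was above every sham animal, at 529 ± 60.6 against 372 ± 81.8 TPM, and the difference was 0.54 ± 0.15 (unadjusted p = 0.00412, adjusted p = 0.209). In CCD no animal exceeded 2.46 TPM at 24 h or 1.59 TPM at 72 h, and the 24 h difference was -0.24 ± 0.38 (adjusted p = 0.817).

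The 4 carbonic anhydrases made up different mixtures in the segments. Of their summed mean TPM in sham PT-S1 at 24 h, Car2 took 55.5%, Car12 20.3%, Car14 18.7% and Car4 5.45%. In UNx animals the shares were 50.7%, 11.5%, 23.2% and 14.5%, and the sums were close, at 2046 and 1991 TPM. Without the sham libraries that stood apart, the sham mean of Car12 was 336 TPM instead of 416 TPM, against 230 TPM in UNx animals. That of Car4 was 132 TPM instead of 111 TPM, against 289 TPM. Shares without these libraries were not computed. At 72 h the shares of Car4 were 8.53% in sham and 10.2% in UNx animals. Sham CCD at 24 h had 70.6% Car2 and 28.9% Car12, with 0.498% Car4 and 0.0370% Car14. Without sham 2 library 1 the Car4 share was 0.2205%.

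**Figure D5:**
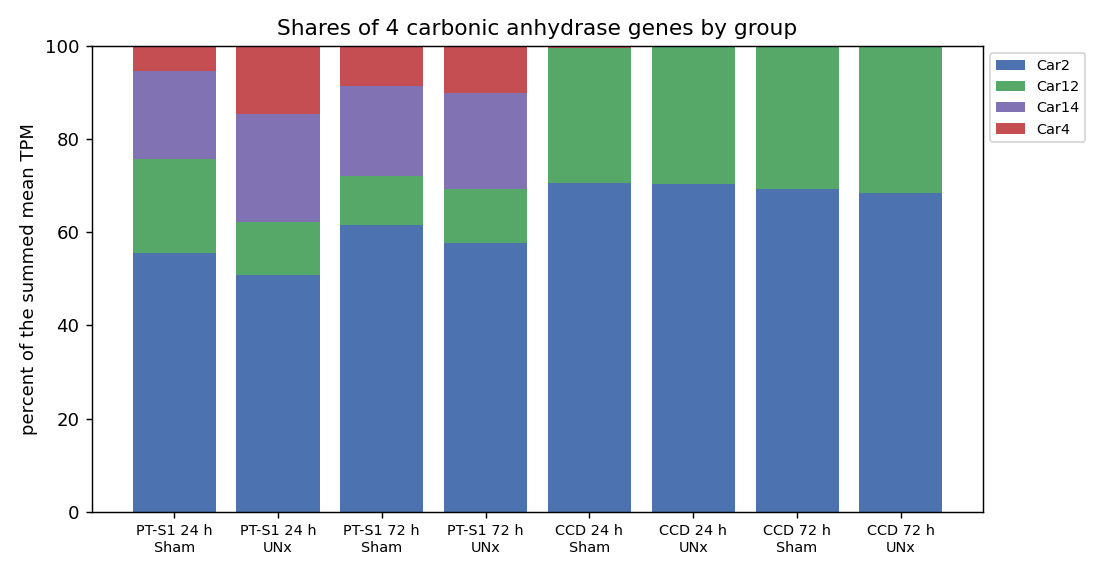
Share of each of 4 carbonic anhydrase genes in their summed mean TPM, in percent, for the 8 groups of segment, time and treatment. Car2 has the largest share in every group, and Car4 and Car14 are visible only in PT-S1, where Car4 takes 5.45% in sham and 14.5% in UNx animals at 24 h.

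Atp1b1 (ENSMUSG00000026576), the beta subunit of the sodium pump, was 2.43-fold higher in CCD than in PT-S1 in sham means at 24 h and 3.98-fold higher at 72 h. PT-S1 sham animals had 731, 509 and 552 TPM at 24 h and UNx animals 563, 471, 556 and 391 TPM. These groups overlapped, with a difference of -0.22 ± 0.18 (adjusted p = 0.502) that was -0.03 relative to the median of all genes. The 72 h sham animals ran from 198 to 389 TPM with a median of 316 TPM and the UNx animals from 255 to 406 TPM with a median of 355 TPM, a difference of 0.04 ± 0.26 (adjusted p = 0.928). Without the UNx libraries of 105 and 118 TPM it was 0.41 ± 0.17 (adjusted p = 0.252).

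In CCD at 24 h Atp1b1 was 1445, 1399.6, 1414 and 1542 TPM in sham and 1290.3, 1358 and 1307 TPM in UNx animals. Every UNx animal lay below every sham animal, and the difference was -0.14 ± 0.07 (adjusted p = 0.405). In the 72 h table the sham animals had 1004, 1328, 1270.5 and 1229.9 TPM and the UNx animals 1308, 1290.2, 1312 and 1266 TPM. The groups overlapped, with a difference of 0.11 ± 0.10 (adjusted p = 0.900), or 0.06 ± 0.08 (adjusted p = 0.767) without sham 1 library 2. The effect at 72 h minus that at 24 h in CCD was 0.25 ± 0.13 (unadjusted p = 0.0686, adjusted p = 0.968), the smallest p of the transport genes in that comparison.

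Differences of the UNx effect between times and segments were tested for the genes measured in both tables, and none of the 8 passed. Between times in PT-S1, 0 of 8 passed and 0 had an unadjusted p under 0.05, against 0% and 3.33% of all 11455 genes. Between times in CCD the counts were 0 and 0 of 5, against 0% and 4.96% of 13253 genes. Between segments at 24 h they were 0 and 2 of 7 (Car4 and Car12), against 0.137% and 15.4% of 10988 genes. Between segments at 72 h they were 0 and 0 of 5, against 0% and 9.33% of 11035 genes. The first of these rests on the libraries that stood apart: without them Slc4a4 (0.79 ± 0.19, limma adjusted p = 0.0492) and Car12 (1.33 ± 0.30, adjusted p = 0.0380) passed for 72 h minus 24 h in PT-S1, with 187 of 11443 genes called. Without sham 3 of PT-S1 at 24 h, Car4 (-2.74 ± 0.61, adjusted p = 0.0470) and Car12 (1.03 ± 0.22, adjusted p = 0.0462) passed for CCD minus PT-S1 at 24 h, with 163 of 10942 genes called.

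The order of levels across the 8 groups of segment, time and treatment was set by the segment. These levels compare tables treated as normalized separately and are descriptions. For Slc9a3, Slc4a4, Slc5a12, Car4 and Car14 the 4 PT-S1 groups were the highest, and for Car2, Car12 and Atp1b1 the 4 CCD groups. The step between the segments exceeded the SDs of both neighbouring groups for all 8 genes. Within a segment, neighbours in the order differed by more than both SDs in 5 cases. Slc5a12 was higher in UNx animals of PT-S1 at 72 h (229 TPM) than at 24 h (182 TPM), and Atp1b1 higher in UNx animals of PT-S1 at 24 h (495 TPM) than at 72 h (332 TPM). Car4 was higher in UNx animals of CCD at 24 h (3.65 TPM) than at 72 h (1.40 TPM). The others were Car12 (UNx over sham) and Atp1b1 (sham over UNx) in CCD at 24 h. Sham animals of PT-S1 also had more Atp1b1 at 24 h (598 TPM) than at 72 h (304 TPM). Their Slc5a12, unlike that of UNx animals, was higher at 24 h (306 TPM) than at 72 h (237 TPM). Sham means of PT-S1 exceeded those of CCD at 24 h by 867-fold for Slc5a12, 325-fold for Car14, 70.2-fold for Slc4a4, 13.3-fold for Slc9a3 and 7.02-fold for Car4. The last 2 rest on CCD sham 2 library 1, and without it, a choice made after the values were seen, they were 62.3-fold and 15.9-fold. At 72 h they were 191-fold and 42.5-fold, and 126-fold and 99.4-fold without the CCD library that stood apart. Without that library Car14 had a larger ratio at 72 h than Slc5a12, 673-fold against 650-fold, over CCD means of only 0.5525 and 0.364 TPM.

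Across the 17 PT-S1 animals most of the genes varied together within their groups. Pearson's r of the deviations from the group mean was positive in 22 of 28 pairs, with a median of 0.54, and highest for Slc4a4 with Car12 (0.93) and Car12 with Car14 (0.85). Car2 ran the other way against Car4 (-0.62) and Slc9a3 (-0.51). Without the 4 PT-S1 libraries that stood apart, 19 of the 28 were positive with a median of 0.14. Slc4a4 with Car12 then had 0.73, Slc4a4 with Car14 0.80, and Car2 with Car4 -0.52. The animals' values share their libraries and their scaling to a fixed total, and r is given as a description.

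The genes whose levels were most like each of the 8 over all 32 animal means, among 9247 genes, followed the segments. Slc9a3 was closest to Cdhr5, a brush border cadherin (r = 0.989), and Itgb8 (r = 0.987). Slc4a4 was closest to Lpar3 and to Slc6a19, the apical neutral amino acid transporter (r = 0.994 for both). Slc5a12 was closest to Cyp2d26 and Nox4 (r = 0.998 for both), Car14 to Alpl, alkaline phosphatase, and Gpx3, glutathione peroxidase (r = 0.998 and 0.997), and Car4 to Eci3 (r = 0.985) and Ggt1, the brush border gamma-glutamyltransferase (r = 0.984). Those higher in CCD were closest to Ifitm2 and Copz2 (Car2, r = 0.971 and 0.9602), Sgpl1 and Xxylt1 (Car12, r = 0.981 and 0.978), and Osbpl1a and Tmprss2 (Atp1b1, r = 0.988 and 0.984). Since the animals fall into 2 segments, the step between them is part of every coefficient.

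Other genes of acid, sodium and bicarbonate transport were followed in 7 lists, of which 94 genes were found. In PT-S1 at 24 h, 57 were tested and 0 passed, with 1 higher and 3 lower in UNx at an unadjusted p under 0.05. The 72 h counts were 60 tested and 0 passed, with 1 higher and 5 lower. In CCD, 75 were tested at 24 h and 0 passed, with 7 higher and 8 lower, and 71 were tested at 72 h and 0 passed, with 1 higher and 0 lower. Over all genes, 17.8%, 20.5%, 15.5% and 7.49% had an unadjusted p under 0.05 in these tables, so 15 of 75 in CCD at 24 h lay near the background and the other counts below it.

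The genes named from each list and table are those with the smallest p. List values are given with all libraries only, including those that stood apart. Without these, the median of all genes in PT-S1 was -0.21 at 24 h and -0.02 at 72 h, instead of -0.19 and -0.29. The part of these libraries in the list values was not tested. Of the 16 bicarbonate transporters and anion exchangers found, all 7 tested in PT-S1 at 24 h were lower in UNx, with a list median of -0.45 against -0.19 over all genes. Slc4a2, a chloride-bicarbonate exchanger, had 23.1 ± 10.01 TPM for sham and 13.4 ± 2.13 TPM for UNx animals there (SD, n = 3 and n = 4; limma adjusted p = 0.254). In CCD at 24 h Slc26a4, which encodes pendrin of intercalated cells, had 1138 ± 127 and 1428 ± 140.2 TPM (SD, n = 4 and n = 3; adjusted p = 0.189), with 7 of 13 list members higher. At 72 h in CCD 11 of 14 were higher, with a list median of 0.22 against 0.01, and Slc26a1 was named (-0.41, adjusted p = 0.807). In PT-S1 at 72 h, Slc26a4 was named (-0.39, adjusted p = 0.251), at 3.34 and 1.95 TPM.

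Among the 15 sodium-proton exchangers and partners of NHE3, 8 of 11 tested were lower in UNx at each time in PT-S1. Slc9a3r2, a scaffold of NHE3, had 22.6 ± 5.55 and 14.0 ± 6.25 TPM at 72 h (adjusted p = 0.237). The list medians were -0.18 at 24 h and -0.41 at 72 h, against -0.19 and -0.29 over all genes. In CCD the list medians were -0.05 and 0.11, with Dpp4 (0.27, adjusted p = 0.538) and Slc9a3r2 (-0.32, adjusted p = 0.870) named.

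Of the 12 other carbonic anhydrases, Car15 was the most abundant member of the family in CCD at 24 h, with 2771 ± 871 TPM for sham and 4428 ± 497 TPM for UNx animals (SD, n = 4 and n = 3). The groups did not overlap, and the difference was 0.73 ± 0.23 (adjusted p = 0.168). At 72 h Car15 had 1259 ± 209 and 1789 ± 781 TPM (SD, n = 4 each; adjusted p = 0.887), with overlapping groups. In PT-S1 the genes named were the mitochondrial Car5b at 24 h, with 66.2 ± 35.4 and 31.6 ± 9.73 TPM (adjusted p = 0.254), and Car7 at 72 h (-0.35, adjusted p = 0.278). The list medians were -0.26, -0.17, 0.08 and 0.08 in PT-S1 at 24 h and 72 h and CCD at 24 h and 72 h.

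The proton pump list held 21 V-ATPase genes. In CCD at 24 h Atp6v0a4, the a4 subunit of intercalated cells, had the smallest limma adjusted p of the genes named from the lists (0.0668), with 154 ± 39.5 TPM for sham and 82.0 ± 1.47 TPM for UNx animals (SD, n = 4 and n = 3). The groups did not overlap, and the difference was -0.88 ± 0.18. The list as a whole had 9 higher and 12 lower members there, with a median of -0.01. Also named were Atp6v0e in PT-S1 at 24 h (0.54, adjusted p = 0.254), the intercalated cell subunit Atp6v1g3 in PT-S1 at 72 h (-1.09, adjusted p = 0.237, at 2.65 and 0.261 TPM) and Atp6v1e1 in CCD at 72 h (0.25, adjusted p = 0.700). The list medians in the other tables were -0.05, -0.18 and 0.03. In PT-S1 at 72 h the sum of the 6 intercalated cell markers, which include Atp6v1g3 and Slc26a4, ran from 3.44 to 24.0 TPM in sham and from 1.80 to 2.75 TPM in UNx animals, without overlap, and its part in both values was not tested.

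Other sodium pump subunits and FXYD regulators of the pump numbered 13, of which 5 to 8 were tested per table. Their medians were 0.03 and 0.20 in PT-S1 and -0.18 and 0.20 in CCD at 24 h and 72 h. Fxyd4, a pump regulator of the collecting duct, had 39.3 ± 7.28 and 58.3 ± 20.6 TPM in PT-S1 at 72 h (adjusted p = 0.244), and Fxyd2, the gamma subunit, 636 ± 248 and 873 ± 197 TPM in CCD at 72 h (adjusted p = 0.756). Fxyd5 was named in PT-S1 at 24 h (0.42, adjusted p = 0.498) and Fxyd3 in CCD at 24 h (-0.73, adjusted p = 0.212).

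Of 10 carboxylate carriers, Slc16a3, the lactate exporter MCT4, had 1.34 ± 0.465 TPM for sham and 3.65 ± 1.04 TPM for UNx animals of CCD at 72 h (SD, n = 4 each), without overlap. The difference of 1.00 ± 0.23 did not pass (limma adjusted p = 0.136). Slc13a1, a sulfate carrier, was named in PT-S1 at 24 h (0.46, adjusted p = 0.383), Slc13a3 at 72 h (0.91, adjusted p = 0.308) and Slc16a12 in CCD at 24 h (-0.38, adjusted p = 0.554). The list medians were 0.20 and 0.12 in PT-S1 and -0.06 and 0.27 in CCD.

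Among the 7 potassium channel genes, all 3 tested in PT-S1 were lower in UNx at both times, with medians of -0.24 and -0.23 that lay near those of all genes. Kcnj16, a subunit of basolateral channels, had 484 ± 209 and 319 ± 57.5 TPM at 24 h (adjusted p = 0.497) and was also named at 72 h (-0.39, adjusted p = 0.396). In CCD the named genes were Kcnj10 at 24 h, with 15.3 ± 2.44 and 11.3 ± 0.884 TPM and no overlap (adjusted p = 0.200), and Kcne1 at 72 h (0.33, adjusted p = 0.848). The list medians there were -0.11 and 0.05.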

How the data were processed

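The authors deposited 4 tables of TPM values per gene and library, 1 for each segment and time. The submitters' processing notes name STAR, RSEM 1.3.3 and the build GRCm39, while the annotation release and the role of each tool are not given in the sources used here. All 69 columns were used: 47 matched 1 sample by name, and 22 gave the group and the animal but not which library, which leaves the animal means untouched.

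Each animal's libraries entered the tests as their mean log2(TPM + 1), with a pseudocount of 1, so that the animal is the replicate; the TPM printed per animal are arithmetic means. Genes whose animals averaged at least 1 TPM in a table entered limma 3.58.1 in R 4.3.3 (linear models, empirical Bayes with a trend, two-sided), with Benjamini-Hochberg adjustment and a threshold of 0.05. The 4 tables were treated as normalized separately, and effects were compared between tables only as differences in a model of 4 groups. The fitting code was tested on simulated data. TPM keeps no depth, so no counting error was computed.

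The 8 genes and the lists were chosen with earlier results of these data known. Named from each list and table were genes past the threshold or, with none, the gene with the smallest p, and for each of the 8 genes the 2 most correlated genes with a mean of at least 10 TPM in a table, without predicted genes or pseudogenes. A gene that this rule names is not reported here. Promoters came from RefSeq on GRCm38.p6, another build than that of the tables, and were matched by symbol. Alternatives covered the pseudocount, the filter, the scaling, the treatment of libraries, a block by animal number, and leaving out animals or libraries. Settings that leave out libraries rich in markers of another segment were chosen after seeing the data.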

Additional observations from a re-analysis of the deposited data

Results flagged for a closer look

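In 41 groups of 4 or 5 animals, the gap of the highest or lowest animal to its neighbour was compared with the group's range on the log2(TPM + 1) scale by Dixon's test at the 95% level. It picked out 3 values, where chance picks about 1 in 20 groups. Sham 5 of PT-S1 at 72 h had 403.79 TPM of Car4, against 96.9 to 118 TPM in the other 4 animals; its library 2 had 840 TPM and the highest S3 marker sum of all PT-S1 libraries, 1955 TPM. Sham 1 of CCD at 72 h had 2879.72 TPM of Car2, against 2128 to 2199 TPM; its libraries had 2787 and 2973 TPM, so both were high, and library 2 stood apart from the table. UNx 2 of CCD at 72 h had 886.65 TPM of Car12, against 1274 to 1370.3 TPM, from a single library; on the TPM scale its gap is 0.802 of the range, under the limit for 4 animals, while the other 2 exceed theirs on both scales.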

How the results depend on the processing

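Over 28 differences of UNx against sham and their 513 alternatives, 481 kept the direction and the side of the threshold, 31 turned the sign in 11 results, none of them past the threshold, and 1 passed it. Median-ratio scaling moved the median over the 8 genes in PT-S1 at 24 h from -0.27 to -0.038 and turned Car2 (0.017) and Atp1b1 (0.021) there and Slc9a3 (0.085), Slc4a4 (0.066) and Slc5a12 (0.21) at 72 h; it brought the median of all genes to 0.011 and 0.014. Quantile normalization turned Slc9a3 (0.002) and Car2 (-0.079) in PT-S1 at 72 h. Without the libraries of low correlation Slc9a3 (0.111), Slc4a4 (0.31) and Slc5a12 (0.254) turned in PT-S1 at 72 h and Slc4a4 (-0.137) in CCD at 72 h, and 2 genes passed for 72 h minus 24 h in PT-S1. Without the libraries with S3 markers over 100 TPM, Car2 at 24 h (0.225) and Car12 at 72 h (-0.168) turned. Slc4a4 in CCD at 72 h was -0.098 with every library as a replicate, -0.06 with a random effect for the animal and -0.002 from log2 of mean TPM. Leaving out each animal in turn gave -0.156 to 0.267 for Car12 and -0.101 to 0.176 for Atp1b1 in PT-S1 at 72 h, -0.188 to 0.228 for Slc4a4 and -0.668 to 0.292 for Car4 in CCD at 72 h, and 0 to 2 genes past the threshold for CCD minus PT-S1 at 24 h. The causes were not tested.

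Sham and UNx groups share animal numbers, but the same-number correlations of deviations ran from -0.366 to 0.328. Most sham animals with a shared number did not correlate best with the UNx animal of that number. The numbers were therefore not taken to pair animals. With the number as a replicate block, Car4 passed in PT-S1 at 24 h (1.49, limma adjusted p = 0.0193, and 1 of the 8 genes), Car14 in CCD at 24 h turned to 0.023, and no other call of the 8 genes changed.

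Counts over all genes moved more. In PT-S1 at 24 h, 0 became 2 without the filter, 85 with every library as a replicate, 100 with the animal as a random effect, 81 under the block and up to 8 without 1 animal; at 72 h 0 became 18 and 10 with the library settings. In CCD at 24 h, 136 became 1 without the filter, 1027 and 485 with the library settings, 0 under the block and 7 to 78 without 1 animal. In CCD at 72 h, 82 became 39 with a filter of 5 TPM, 7 without a filter, 150 with every library, 3 under the block, 129 without the library of low correlation and as few as 8 without 1 animal. Depth is unknown, so levels near 0 carry no detection limit.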
